A study of Mus musculus with 15 samples.

Results

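Expression of 10 genes of the Notch pathway was examined by bulk RNA-seq in 4T1 cells, a mouse mammary carcinoma line used as a model of triple-negative breast cancer. The genes were the ligand gene Jag1, the receptor genes Notch1, Notch2 and Notch3, the Mastermind coactivator genes Maml1, Maml2 and Maml3, the DNA-binding factor gene Rbpj and the target genes Hes1 and Hey1. They were taken by symbol from the 40402 genes of the count table, and all 10 were found. Maml3 was picked because its level was higher in treated than in untreated libraries, and the others to set it against its pathway, so the contrasts with untreated cells are given as description with no test.

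The 5 conditions were all of wild-type 4T1 cells, namely untreated cells and cells given blackberry extract (BLA), blueberry extract (BLU), gold nanoparticles made with the blackberry extract (BLA-A) or gold nanoparticles made with the blueberry extract (BLU-A). Treatment began 24 hours after seeding, with the 4 agents at one common concentration. The labels do not say for how long, and no library of gold particles without berry material was analysed here. Each condition had 3 labelled samples, which the study's methods treat as biological replicates. The sequencing report lists 1 set of raw reads per condition, subset 3 times, and the 3 columns differed by less than the sampling noise, with a chi-square per degree of freedom from 0.0951 to 0.475. The mean of the 3 columns was used as 1 library, so 95% intervals cover counting error only, and a difference from untreated cells compares 2 libraries.

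Mean total counts per library lay between 25613778 and 26956442, and 3 counts, taken as the floor, equalled 0.111 to 0.117 CPM, the count of a gene scaled to a common library total. The epithelial genes Krt8, Krt18, Epcam and Cdh1 had between 920 and 15969 counts in each library, while Krt14 had 10 to 20. Of 5 leukocyte markers 3 passed the filter on low counts, and the summed level of the list was 11.1 CPM in untreated cells and 8.38 to 9.69 CPM in treated cells. Of 4 endothelial markers 3 passed, with sums of 7.02 and 2.93 to 6.46 CPM. Of 4 fibroblast markers Pdgfra alone passed, with sums of 90.7 and 86.3 to 102 CPM, and Lum was at 0 throughout.

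In Notch signaling, a ligand on one cell binds a receptor on its neighbor, and successive cuts by an ADAM protease and by the gamma-secretase complex free the intracellular part of the receptor. That fragment enters the nucleus and forms a complex with RBPJ, which sits on DNA with the core motif TGGGAA, and with a Mastermind protein, which recruits histone acetyltransferases. Hes and Hey genes, which encode transcriptional repressors, are well known direct targets, and the pathway takes part in cell fate choice in the mammary epithelium.

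The promoters of the Mastermind genes and of Rbpj are shown because Maml3 and Maml2 hold the largest differences among the 10, with Maml1 as their relative, and because RBPJ itself reads the motif. Sequences are the 250 bases before the RefSeq start on GRCm38.p6, 5′ to 3′ on the strand of the gene, with TGGGAA or its reverse complement TTCCCA in capitals. A RefSeq promoter was matched for 8 of the 10 genes. The windows are chr3:52105007-52105256 on the minus strand for Maml3, chr9:13297708-13297957 on the plus strand for the first start of Maml2, chr11:50292337-50292586 on the minus strand for Maml1 and chr5:53590096-53590345 on the plus strand for the first start of Rbpj.
Maml3: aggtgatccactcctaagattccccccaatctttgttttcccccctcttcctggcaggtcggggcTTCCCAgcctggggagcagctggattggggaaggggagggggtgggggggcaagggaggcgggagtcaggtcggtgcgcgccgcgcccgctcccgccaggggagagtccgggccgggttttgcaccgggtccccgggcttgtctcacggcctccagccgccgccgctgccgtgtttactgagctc
Maml2: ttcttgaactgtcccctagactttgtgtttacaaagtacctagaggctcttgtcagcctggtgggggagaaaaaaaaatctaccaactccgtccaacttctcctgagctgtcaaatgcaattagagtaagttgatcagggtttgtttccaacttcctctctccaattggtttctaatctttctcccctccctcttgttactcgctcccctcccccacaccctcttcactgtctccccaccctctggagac
Maml1: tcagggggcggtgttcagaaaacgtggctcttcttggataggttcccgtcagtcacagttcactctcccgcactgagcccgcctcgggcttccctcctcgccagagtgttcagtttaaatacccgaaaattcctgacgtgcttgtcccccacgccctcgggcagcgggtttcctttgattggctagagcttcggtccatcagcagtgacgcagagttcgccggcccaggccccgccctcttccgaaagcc
Rbpj: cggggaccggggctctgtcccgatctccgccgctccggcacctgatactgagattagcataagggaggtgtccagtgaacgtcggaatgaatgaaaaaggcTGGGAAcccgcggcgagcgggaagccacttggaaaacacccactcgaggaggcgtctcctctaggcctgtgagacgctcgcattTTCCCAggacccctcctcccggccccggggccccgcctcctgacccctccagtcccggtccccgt

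The motif, searched on both strands, was present in 4 of 10 promoters of the listed genes, with 1 site counted in both windows of Rbpj, against 21.6% of all 32851 promoters and 21.0% of those of genes that passed the filter. Maml3 had 1 match, on the opposite strand, 185 to 180 bases before the start. The first promoter of Rbpj had 2, at 149 to 144 bases on the strand of the gene and at 65 to 60 bases on the opposite strand. Its second start has a window that overlaps the first, and its 1 match, 205 to 200 bases before that start, is the same site as the match at 65 to 60 bases. Maml2 had none at its first start and 1 at its second (window chr9:13662210-13662459), on the opposite strand, 145 to 140 bases before the start. No match was found in the windows of Maml1, Notch1, Notch2, Notch3 or Jag1. A match is a string of letters in a window and was not tested as a binding site.

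Of the 10 genes, 9 passed the filter of 1 CPM in at least 1 library, and Hey1 did not. Levels are CPM after trimmed mean of M-values (TMM) normalization, and log2 fold changes were taken after adding 0.5 CPM. On the level per kilobase of annotated gene span, used because counts were taken over whole genes, Hes1 stood first in untreated cells at 12.4 CPM per kb. Jag1 followed at 2.80, Maml1 at 2.07, Notch2 at 1.79, Rbpj at 1.48, Maml2 at 1.32, Notch1 at 0.985 and Maml3 at 0.672 CPM per kb. Hey1 at 0.0760 and Notch3 at 0.0317 CPM per kb were the lowest. Per kilobase of exon instead, Maml2 stood first at 64.5 CPM per kb, followed by Maml3 at 26.9 CPM per kb, and Hes1 was at 16.5 CPM per kb. The order of genes within a library therefore depends on the length chosen, and which length fits these counts was not tested. It depends on the source of the spans too. Those used are from GENCODE on GRCm39, and the RefSeq table differs in both annotation and genome build. The RefSeq table for GRCm38 gives 102 kb in place of 191 kb for Rbpj and 413 in place of 322 kb for Maml2. For Notch1 it gives 45.9 in place of 58.8 kb, and for Hes1 2.44 in place of 4.51 kb.

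**Figure D1:**
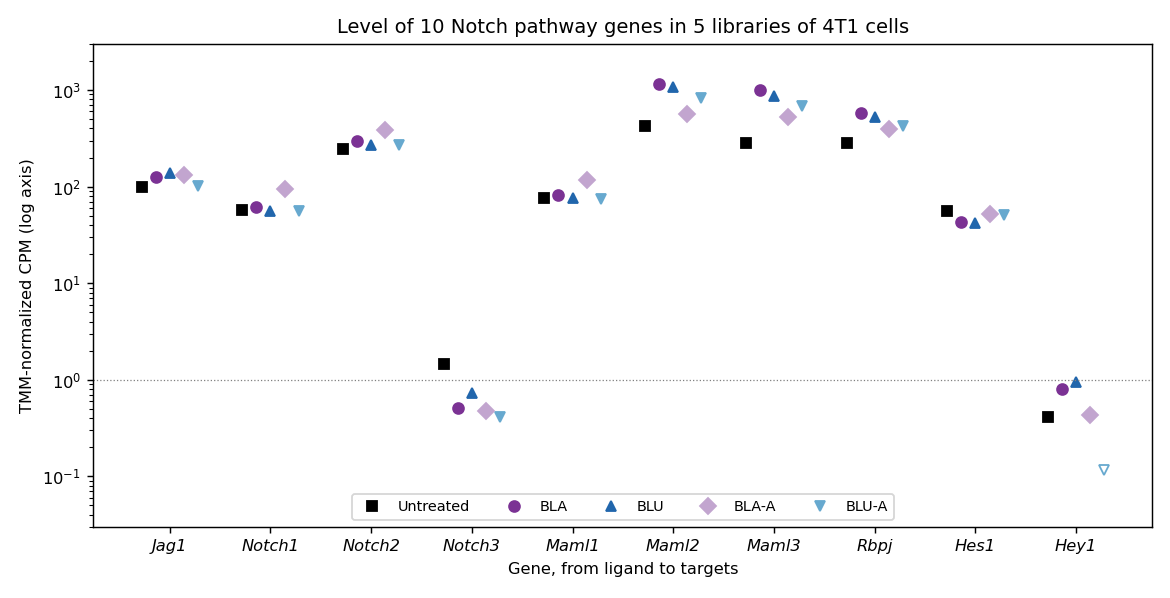
Level of the 10 Notch pathway genes (x axis) in the 5 libraries, in TMM-normalized CPM on a log axis, 1 point per library, with the filter of 1 CPM dotted and the open symbol drawn at the floor for a library with 0 counts. Maml2, Maml3 and Rbpj were lowest in untreated cells and highest under BLA, Hes1 was highest in untreated cells, and Notch3 and Hey1 lay near or below 1 CPM.

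A log2 fold change over 1 in size was found for 3 of the 9 genes under BLA, which were Maml2, Maml3 and Rbpj, all higher than in untreated cells. Over all 17647 genes kept, 16.5% passed it under BLA. Under BLU it was found for 2 of 9, Maml2 and Maml3, both higher, against 10.3% of all genes. Under BLA-A the single gene past it was Notch3, which was lower, against 20.9% of all genes. Under BLU-A there were 2, Maml3 higher and Notch3 lower, against 7.85% of all genes. The median log2 fold change of the 9 genes was 0.29 under BLA, 0.15 under BLU, 0.48 under BLA-A and 0.03 under BLU-A, beside medians over all genes of -0.01, -0.01, -0.01 and 0.00. The 4 comparisons share 1 untreated library, and nothing is read from these shares since Maml3 was picked on this contrast. Scaling by total counts alone lowered the median of all genes under BLA-A by 0.18 on the log2 scale, and the share of higher genes among those past the threshold under BLA-A fell from 40.8% to 28.4%.

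Maml3 lies on chromosome 3 of GRCm39 from 51593328 to 52012497 on the minus strand, a span of 419 kb of which 10.5 kb is exon. Its product is one of the Mastermind proteins that bridge the receptor fragment and acetyltransferases. It had 7512 counts in untreated cells, 27092 under BLA, 23648 under BLU, 12222 under BLA-A and 18231 under BLU-A. The 3 columns behind each mean, subsets of 1 library, spanned 7500 to 7527 in untreated cells and 12140 to 12294 under BLA-A. BLA-A was the lowest of the treated libraries. Nothing is read from the distance between these columns, since Maml3 was picked on this contrast. In bulk RNA, fewer cells of a kind and less RNA per cell cannot be told apart. Normalized levels were 282, 995, 858, 527 and 688 CPM in the same order. The log2 fold change was 1.82 under BLA (95% counting interval 1.78 to 1.85), 1.60 under BLU (1.57 to 1.64), 0.90 under BLA-A (0.86 to 0.94) and 1.29 under BLU-A (1.25 to 1.32). The order from highest to lowest was BLA, BLU, BLU-A, BLA-A and untreated, and no intervals of neighboring libraries in this order overlapped. In the annotation 16 other genes overlap the span of Maml3, and 0 of them had an entry in the count table.

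Maml2, on chromosome 9 from 13298302 to 13620684 on the plus strand (322 kb, of which 6.60 kb is exon), showed the same order of libraries. This gene encodes a second Mastermind protein, known from fusions in salivary gland tumors. Counts were 11354 in untreated cells, 31556 under BLA, 29557 under BLU, 13051 under BLA-A and 22049 under BLU-A. The log2 fold changes were 1.44 under BLA (1.41 to 1.47), 1.33 under BLU (1.30 to 1.36), 0.40 under BLA-A (0.37 to 0.44) and 0.96 under BLU-A (0.93 to 1.00). BLA-A was thus much nearer to untreated cells for Maml2 than the other treatments were. The overlapping gene in the count table, Phxr4, was at 0 in each library.

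Maml1, on chromosome 11 from 50146461 to 50183190 on the minus strand (36.7 kb), did not share this pattern. Its counts were 2030 in untreated cells, 2249 under BLA, 2111 under BLU, 2714 under BLA-A and 1987 under BLU-A. The log2 fold changes were 0.12 under BLA (0.03 to 0.20), 0.62 under BLA-A (0.53 to 0.70) and -0.02 under BLU-A (-0.11 to 0.07), and the 0.01 under BLU changed sign with DESeq2 size factors or total counts as the scaling. BLA-A was the highest library for Maml1 and the lowest treated library for Maml2 and Maml3.

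Rbpj lies on chromosome 5 from 53623494 to 53814704 on the plus strand, a span of 191 kb in GENCODE and of 102 kb in the RefSeq table for GRCm38. It encodes the factor through which Notch reaches DNA. Counts were 7530 in untreated cells, 15827 under BLA, 14488 under BLU, 9136 under BLA-A and 11368 under BLU-A. The order of libraries was that of Maml3 and Maml2. The log2 fold changes were 1.04 under BLA (1.00 to 1.08), 0.89 under BLU (0.85 to 0.93), 0.48 under BLA-A (0.44 to 0.52) and 0.60 under BLU-A (0.56 to 0.64). Of the 2 overlapping lncRNA genes in the table, Gm10441 had at most 46 counts and Gm40304 at most 1.

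Jag1, which encodes a transmembrane ligand of the receptors, is on chromosome 2 from 136923373 to 136958693 on the minus strand (35.3 kb). Its counts were 2632 in untreated cells, 3452 under BLA, 3825 under BLU, 3069 under BLA-A and 2675 under BLU-A. The log2 fold changes were 0.36 under BLA (0.28 to 0.43), 0.49 under BLU (0.42 to 0.56) and 0.42 under BLA-A (0.35 to 0.50). Under BLU-A it was 0.03, and the counting interval of -0.05 to 0.11 spans 0.

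Notch2, on chromosome 3 from 97920800 to 98057677 on the plus strand (137 kb), was the receptor gene with the most counts. It had 6512 counts in untreated cells, 8135 under BLA, 7473 under BLU, 9049 under BLA-A and 7187 under BLU-A. Its log2 fold changes were 0.29 (0.24 to 0.34), 0.15 (0.10 to 0.20), 0.67 (0.63 to 0.72) and 0.15 (0.10 to 0.20) in the order of the 4 treatments. BLA-A was the highest library, untreated cells were the lowest, and BLU and BLU-A were level at 271 CPM each.

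Notch1, on chromosome 2 from 26347915 to 26406675 on the minus strand (58.8 kb), had 1543 counts in untreated cells, 1691 under BLA, 1542 under BLU, 2192 under BLA-A and 1465 under BLU-A. Only BLA-A stood apart, with a log2 fold change of 0.70 (0.61 to 0.80). The log2 fold changes in the others were 0.10 under BLA (0.00 to 0.20), -0.05 under BLU (-0.15 to 0.05) and -0.07 under BLU-A (-0.17 to 0.04). The lncRNA gene 0610009E02Rik overlaps Notch1 on the other strand and had 259 to 397 counts, with its lowest count under BLA-A. Whether the strand setting of the counting matched the library kit is not given in the sources used here, so the values of overlapping genes on opposite strands are uncertain. With total counts as the scaling, the BLA-A values of Notch1, Notch2 and Maml1 were 0.51, 0.48 and 0.43. Those of Maml3, Maml2, Rbpj, Jag1 and Hes1 were then 0.71, 0.21, 0.29, 0.23 and -0.27.

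Notch3, on chromosome 17 from 32339794 to 32385893 on the minus strand (46.1 kb), was barely detected. It had 39 counts in untreated cells, 14 under BLA, 20 under BLU, 11 under BLA-A and 11 under BLU-A. All 4 treated libraries were below the untreated one, at 0.415 to 0.726 CPM against 1.46 CPM, so the gene passed the filter through the untreated library alone. Its log2 fold changes were -0.95 under BLA (-1.83 to -0.07), -0.68 under BLU (-1.46 to 0.10), -1.01 under BLA-A (-1.98 to -0.05) and -1.10 under BLU-A (-2.07 to -0.14). With 2 CPM added instead of 0.5 these values were -0.46, -0.35, -0.49 and -0.52, and none passed 1 in size. With DESeq2 size factors, or with no filter on low counts, the BLA-A value did not pass it either. Of the leukocyte markers, Adgre1 (57 counts in untreated cells, 5 to 19 in treated cells) and Ptprc (40 counts, and 5 to 31) were also lower in each treated library. Cd68, the most abundant of the list, had 196 counts in untreated cells and 190 to 240 in treated cells, and the part of these cells in the result was not tested.

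**Figure D2:**
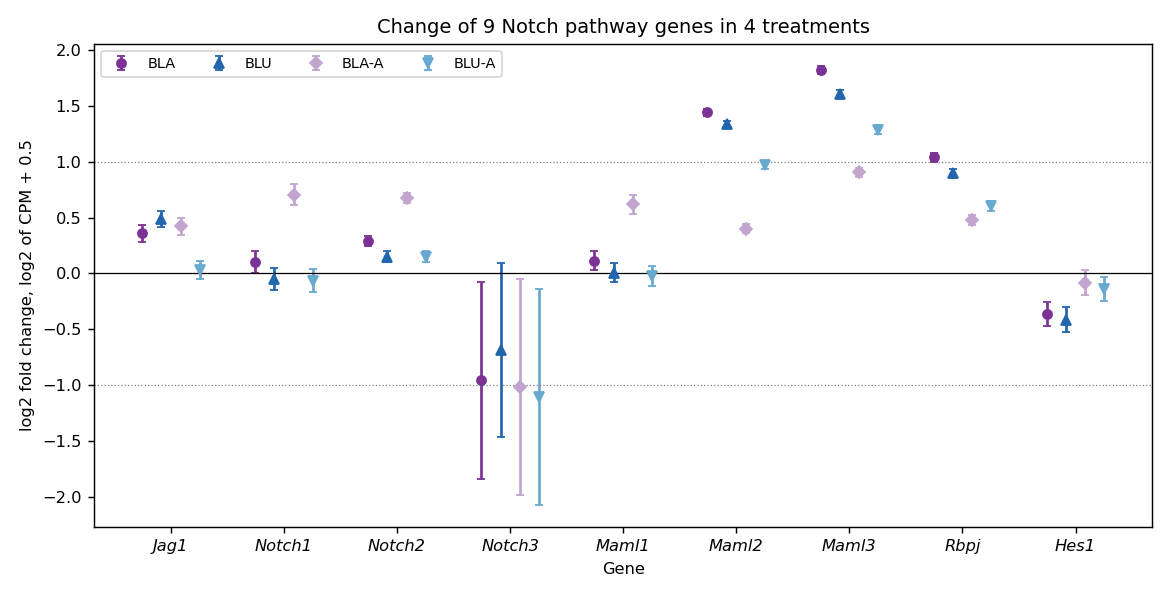
Log2 fold change against untreated cells (y axis, on CPM plus 0.5) of the 9 genes that passed the filter (x axis) in the 4 treatments, with bars for the 95% counting interval and dotted lines at 1 and -1. Maml3 reached 1.82 under BLA and Hes1 was lowest under BLU at -0.41, while the wide bars of Notch3 rest on 11 to 39 counts.

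Hes1, the repressor gene most often read as Notch output, is on chromosome 16 from 29882134 to 29886643 on the plus strand (4.51 kb). It had 1487 counts in untreated cells, 1179 under BLA, 1153 under BLU, 1221 under BLA-A and 1340 under BLU-A. Levels were 55.8, 43.3, 41.8, 52.7 and 50.6 CPM, so untreated cells were the highest library and the extracts the lowest. The log2 fold changes were -0.36 under BLA (-0.47 to -0.25), -0.41 under BLU (-0.52 to -0.30) and -0.14 under BLU-A (-0.25 to -0.03). Under BLA-A it was -0.08 with a counting interval of -0.19 to 0.03, and its sign changed when no filter on low counts was used. Where Maml2, Maml3 and Rbpj were highest, under BLA and BLU, Hes1 was lowest.

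Hey1, a related repressor gene on chromosome 3 from 8726956 to 8732385 on the minus strand (5.43 kb), had 11 counts in untreated cells, 22 under BLA, 26 under BLU, 10 under BLA-A and 0 under BLU-A. Its level was at most 0.943 CPM. The 0 under BLU-A allows up to 3 counts, or 0.117 CPM. No fold change is given for Hey1, which did not pass the filter.

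Gene span moved with these values. Of 5446 genes that averaged 1000 or more counts over the 5 libraries, 178 spanned more than 300 kb, as Maml2 and Maml3 do. Their median log2 fold change was 0.87 under BLA, 0.77 under BLU, 0.30 under BLA-A and 0.51 under BLU-A, and 35.4%, 24.2%, 1.69% and 5.06% of them were past 1. For the 960 genes of 100 to 300 kb, the class of Rbpj and Notch2, the medians were 0.40, 0.37, 0.18 and 0.21. The 2235 genes of 30 to 100 kb, with Notch1, Maml1 and Jag1, had medians of 0.05, 0.04, 0.05 and 0.01. In the 1988 genes under 30 kb, the class of Hes1, the medians were -0.28, -0.21, 0.11 and -0.10. The order of treatments in the longest class was BLA, BLU, BLU-A and BLA-A, which is that of Maml3, Maml2 and Rbpj. Maml3 was above the median of its class in each treatment, by the values given, and Maml2 likewise. Without the count minimum, the 588 genes over 300 kb that passed the filter had medians of -0.28, -0.05, -1.25 and -0.30. The higher medians thus hold only for long genes that met the minimum. As it averages over the 4 treated libraries too, a gene that is high in those meets it more readily. The part of this selection in the medians was not tested. The counts include introns, and the part of gene span in the result was not tested.

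**Figure D3:**
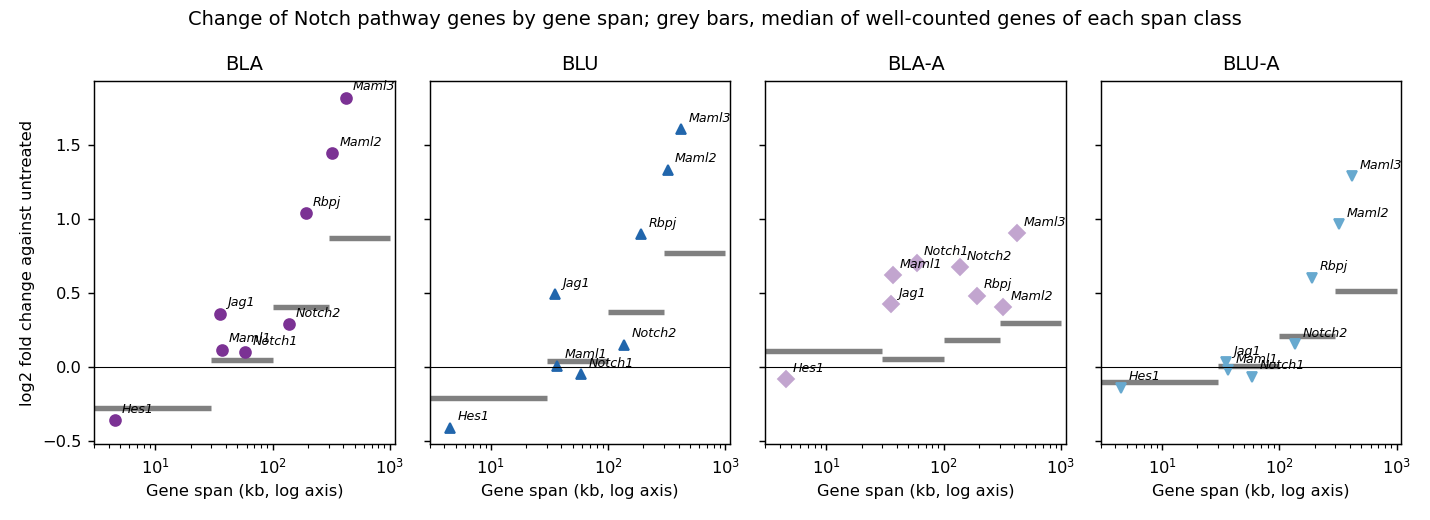
Log2 fold change against untreated cells (y axis) against gene span in kb (x axis, log scale) for the 8 listed genes with at least 1000 counts on average, 1 panel per treatment, with grey bars for the median of well-counted genes in each of 4 span classes, the outer classes being open-ended. Under BLA the medians ran from -0.28 under 30 kb to 0.87 over 300 kb, with Maml3 at 1.82 and Hes1 at -0.36.

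The 5 genes most like Maml3 were sought among 11997 genes with at least 100 counts in untreated cells, by the root mean square difference of their 4 log2 fold changes from those of Maml3. They were 1700006J14Rik (0.10), Gm51671 (0.133), Gm54142 (0.143), Gm51785 (0.145) and Gm53687 (0.174). The nearest, 1700006J14Rik, had log2 fold changes of 1.90, 1.73, 0.93 and 1.41 under BLA, BLU, BLA-A and BLU-A. These are predicted or unnamed genes, and 3 of them have a span in the annotation, of 56.2, 47.5 and 9.58 kb. Maml2 was at rank 54 with a difference of 0.377. The likeness rests on 4 differences that share 1 untreated library.

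Differences among the treated libraries leave out the untreated library that the choice of Maml3 used. The nanoparticle libraries (BLA-A and BLU-A) were compared with the extract libraries (BLA and BLU) over 17077 genes. Here 8 of the 10 genes were tested, as Notch3 and Hey1 were below 1 CPM in the treated libraries. The quasi-likelihood test of edgeR, with p-values adjusted by Benjamini-Hochberg, called 0 of 17077 genes (0% of genes called), with a smallest adjusted p of 0.670 over all genes, and 0 of the 8. At an unadjusted p under 0.05 there were 1088 genes (6.37%), among them Maml2 and Maml3, and the DESeq2 Wald test called 30 genes, none of the 8. Both nanoparticle libraries were lower than both extract libraries for Maml3, with a log2 difference of -0.56 (unadjusted p = 0.0302, quasi-likelihood test). For Maml2 the difference was -0.63 (unadjusted p = 0.0250), and for Rbpj -0.37 (unadjusted p = 0.0918), again with no overlap. Hes1 was higher in both nanoparticle libraries by 0.34 (unadjusted p = 0.199). No overlap was thus seen for 4 of the 8 genes, against 41.6% of all genes.

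For Notch1, Notch2, Maml1, Maml2, Maml3 and Rbpj the single libraries of the 2 formulations lay farther apart for blackberry than for blueberry. The share of all genes with this trait was not computed, so it is not read as particular to these genes. Against untreated cells, 20.9% of all genes were past a log2 fold change of 1 under BLA-A and 16.5% under BLA. The shares were 7.85% under BLU-A and 10.3% under BLU. BLA-A was below BLA by a log2 difference of -0.91 for Maml3 (-0.95 to -0.88) and -1.04 for Maml2 (-1.07 to -1.01). BLU-A was below BLU by -0.32 for Maml3 (-0.35 to -0.29) and -0.37 for Maml2 (-0.39 to -0.34). For Notch1 BLA-A exceeded BLA by 0.60 (0.51 to 0.69), while BLU-A and BLU differed by -0.02 (-0.12 to 0.09). Notch2 gave 0.39 (0.34 to 0.43) and 0.00 (-0.05 to 0.05), and Maml1 0.50 (0.42 to 0.58) and -0.03 (-0.12 to 0.06). Jag1 was the reverse case, at 0.06 (-0.01 to 0.13) for blackberry and -0.46 (-0.53 to -0.39) for blueberry. Hes1 gave 0.28 (0.16 to 0.40) and 0.27 (0.16 to 0.38). Whether the formulation effect differs between the berries was not tested, as each of the 4 has 1 library. Leaving out the BLU-A library leaves BLA-A alone against BLA and BLU and assumes it varies as they do. No call of a listed gene is read from that setting.

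Blackberry libraries (BLA and BLA-A) and blueberry libraries (BLU and BLU-A) were compared in the same way. The quasi-likelihood test called 0 of 17077 genes (0% of genes called) with a smallest adjusted p of 0.918, 589 genes (3.45%) were below an unadjusted p of 0.05, and the DESeq2 Wald test called 13. None of the 8 listed genes tested was below it. Notch1, Notch2 and Maml1 were higher in both blackberry libraries, by log2 differences of 0.55, 0.40 and 0.46 (unadjusted p = 0.114, 0.158 and 0.151, quasi-likelihood test). That is 3 of 8 genes with no overlap, against 32.9% of all genes. Leaving out the BLA library leaves BLA-A alone against the blueberry libraries, and no call of a listed gene is read from that setting.

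A list of 54 further genes of the pathway was set beside these, of which 48 passed the filter. Under BLA 1 of the 48 was past a log2 fold change of 1, Dll1, which was higher. Under BLU there was 0, under BLA-A there were 8 higher and 1 lower, and under BLU-A 2 higher and 1 lower. Aph1c, among the higher genes under BLU-A, passed the filter only through nanoparticle libraries. Over all genes 7.92% were past 1 and 8.54% past -1 under BLA, 5.66% and 4.64% under BLU, 8.54% and 12.4% under BLA-A, and 3.35% and 4.5% under BLU-A. The median of the 48 was -0.07 under BLA, -0.10 under BLU, 0.23 under BLA-A and -0.02 under BLU-A. No gene of the list was past 1 in both extracts, where Maml2 and Maml3 were, but Maml3 was picked on this contrast. The genes also differ in span, as Fbxw7, the longest of the list, has 165 kb. Of well-counted genes over 300 kb, the class of Maml2 and Maml3, 35.4% under BLA and 24.2% under BLU were past 1. The trait is thus not read as particular to these genes.

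Among the other ligand genes and Notch4, 4 of 5 passed the filter. Dll4, a Delta-type ligand known for its role in blood vessels, had 598 counts in untreated cells, 311 under BLA, 449 under BLU, 1996 under BLA-A and 471 under BLU-A, and its log2 fold change under BLA-A was 1.92. Dll1, another Delta-type ligand, had 163, 427, 130, 510 and 219 counts in the same order, with log2 fold changes of 1.29 under BLA and 1.77 under BLA-A. Under BLU it was at -0.34, and under BLU-A at 0.41 (0.11 to 0.70). Both blackberry libraries were above both blueberry libraries, by a log2 difference of 1.59 (unadjusted p = 0.00909, adjusted p = 0.918, quasi-likelihood test). In that test 2 of the 48 pathway genes had an unadjusted p under 0.05, against 3.45% of all genes. The other was Aph1a, at 1.06 (unadjusted p = 0.0419, adjusted p = 0.918). Fam120b, with a mean of 1608 counts, overlaps Dll1 in the annotation. Jag2 was between -0.58 and 0.50 in the 4 treatments, and Dll3 did not pass the filter.

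The 4 genes of ligand endocytosis, a step that lets ligands pull on the receptor, had no member past 1. Mib1, the ubiquitin ligase that acts on Delta and Jagged proteins, was between -0.20 and -0.09. Neurl1b reached 0.80 under BLA-A. Among the 5 genes that glycosylate receptors, Lfng, a Fringe enzyme, had 140 counts in untreated cells, 99 under BLA, 97 under BLU, 319 under BLA-A and 92 under BLU-A, with a log2 fold change of 1.31 under BLA-A. Pofut1, the fucosyltransferase on which Fringe enzymes build, was between -0.23 and -0.01, and Poglut1 was lowest under BLA at -0.88.

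Under BLA-A, 10 of 10 genes of receptor cleavage were above 0, with a median of 0.50, beside 49.1% of all genes. With total counts as the scaling, an alternative added after the data were seen, Psen2 was at -0.18, so 9 of 10 were above 0, with a median of 0.32, beside 39.4% of all genes. As reported Psen2 was at 0.01 (-0.20 to 0.21), and the interval of Aph1c (-0.34 to 1.61) spans 0 as well. Aph1c was at 0.488 CPM in untreated cells, 0.624 under BLA, 0.254 under BLU, 1.04 under BLA-A and 2.64 under BLU-A. It thus passed the filter only through nanoparticle libraries, and nothing is read from its higher values there. Aph1c is included in the counts and medians of the 10 genes, and nothing is read from its part in them. Above 0 were 3 of the 10 under BLA (48.9% of all genes), 2 under BLU (49.3%) and 4 under BLU-A (50.2%). Furin, which makes the first cut of the receptor during its maturation, had 2693 counts in untreated cells, 1785 under BLA, 2119 under BLU, 5850 under BLA-A and 2587 under BLU-A, a log2 fold change of 1.32 under BLA-A. Ncstn and Psenen, which encode gamma-secretase subunits, were at 1.14 and 1.12 under BLA-A. Ncstn overlaps Copa, with a mean of 8656 counts, and Psenen overlaps U2af1l4, with a mean of 146 counts. Aph1a was past -1 under BLU-A at -1.06 and Aph1c past 1 at 1.67, from 300 and 13 counts in untreated cells. Both encode alternative forms of 1 gamma-secretase subunit, and Gm40528, with a mean of 128.0 counts, overlaps Aph1c. The proteases that cut the bound receptor, Adam10 and Adam17, stayed between -0.01 and 0.21 and between -0.14 and 0.24.

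Of 9 genes for inhibitors and turnover, Cdk8 differed most. Its kinase is known to mark the receptor fragment for degradation, and Mastermind brings it there. It had 11024 counts in untreated cells, 14246 under BLA, 10768 under BLU, 2522 under BLA-A and 8052 under BLU-A, and a log2 fold change of -1.92 under BLA-A. Numbl, a relative of the Notch inhibitor Numb, was at 1.21 under BLA-A from 124 counts in untreated cells. Itch, a ubiquitin ligase of the receptor, was between 0.13 and 0.36.

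Of 13 coregulator genes, Rita1, which encodes an RBPJ-binding protein that exports it from the nucleus, was at 1.32 under BLA-A and 1.12 under BLU-A. It rested on 58 counts in untreated cells, and Ddx54, with a mean of 1406 counts, overlaps it. Ncor1, a corepressor, was between 0.05 and 0.21 and Crebbp, an acetyltransferase recruited by Mastermind, between 0.10 and 0.27. Of the 8 remaining targets 3 passed the filter, and the others had at most 20 counts in a library. Ccnd1 (cyclin D1) had 31409 counts in untreated cells, 19169 under BLA, 24753 under BLU, 26537 under BLA-A and 27001 under BLU-A, and its log2 fold changes were -0.74, -0.39, -0.04 and -0.21. Myc lay between -0.30 and 0.19. Nrarp, a feedback inhibitor named after its values were seen, was at -0.65, -0.51, 0.39 and 0.10. Gm13387, with a mean of 4618 counts, overlaps Nrarp, and LTO1, with a mean of 12988 counts, overlaps Ccnd1.

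In the test of nanoparticles against extracts, an unadjusted p under 0.05 was reached by 7 of the 48 genes, against 6.37% of all genes, and 0 were called. Nrarp differed by 0.91 (unadjusted p = 0.0135), Furin by 1.37 (unadjusted p = 0.0195), Dll4 by 1.99 (unadjusted p = 0.0256) and Cdk8 by -1.11 (unadjusted p = 0.0407), each with an adjusted p of 0.670 in the quasi-likelihood test. Rita1, Neurl1b and Ccnd1 were the other three, all higher in the nanoparticle libraries. For Dll4, Furin and Cdk8 the BLA-A library lay farther from the extracts than BLU-A did. The share of all genes for which this holds was not computed, so it is not read as particular to them.

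**Figure D4:**
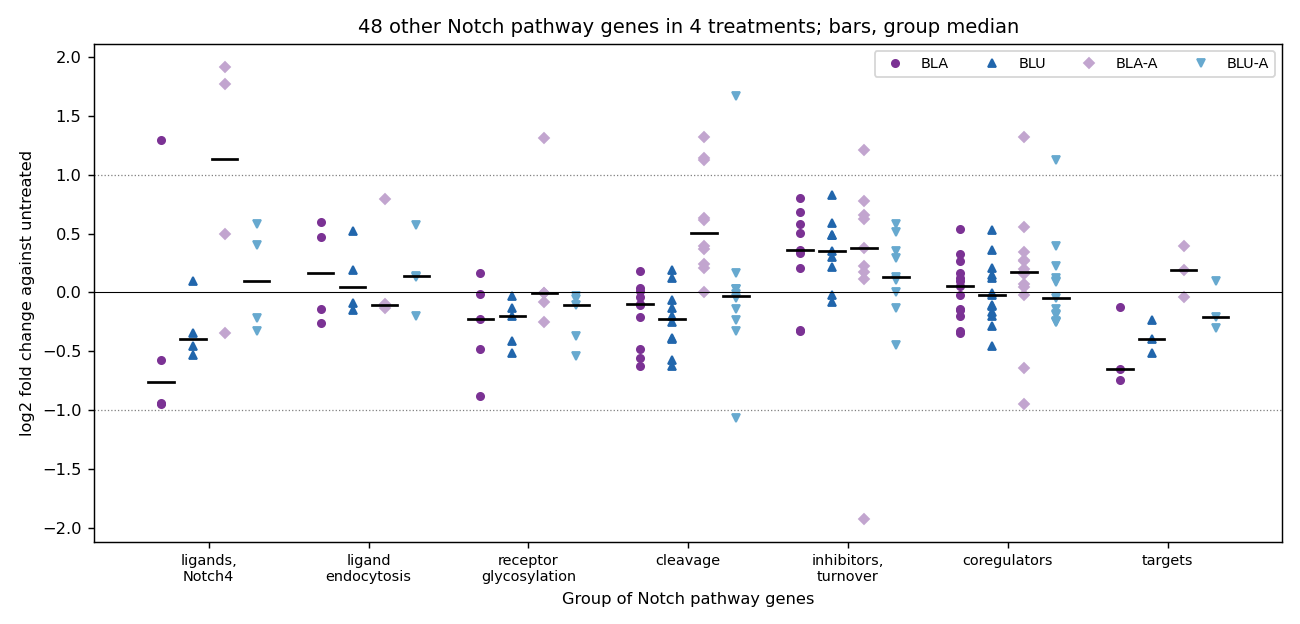
Log2 fold change against untreated cells (y axis) of the 48 other Notch pathway genes that passed the filter, by group (x axis) and treatment, 1 point per gene, with black bars for the group median and dotted lines at 1 and -1. The cleavage genes, with Aph1c included, have a median of 0.50 under BLA-A. Psen2 is at 0.01 there, and below 0 when scaled by total counts, and Cdk8 is the point at -1.92.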

How the data were processed

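Total RNA of 15 labelled samples of 4T1 cells, 3 for each of 5 conditions, was depleted of ribosomal RNA and sequenced. The table the authors deposited holds raw counts for 40402 genes. The study's methods treat the 3 samples as biological replicates, while its sequencing report lists 1 set of raw reads per condition, subset 3 times. Merged reads were aligned to GRCm39 with STAR and counted in OmicsBox over whole genes, introns included, with the forward strand setting and a minimum mapping quality. Whether that setting matched the kit is not given in the sources used here. The submitters' processing notes also name DESeq2 1.36.0. The other deposited tables, with fold changes and p-values of treated against untreated cells and enrichment scores of gene sets, hold the authors' own comparisons and were not used.

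Where the columns of a condition gave a chi-square per degree of freedom below 1.5 across genes averaging 10 counts or more, their rounded mean was taken as 1 library, and all 5 conditions met this. Mean totals ran from 25613778 to 26956442 counts. Genes with 1 CPM in at least 1 library were kept (17647). TMM normalization and the quasi-likelihood test came from edgeR 4.0.16, run with Benjamini-Hochberg adjustment at 0.05 on the 4 treated libraries. Treated libraries were set against the untreated one without a test, at a log2 fold change of 1 on CPM plus 0.5. DESeq2 1.42.0, other scalings, filters and pseudocounts, a block for the other factor, leaving out columns or libraries, and treating columns as samples were alternatives. R 4.3.3, Python 3.11.15, numpy 2.4.6, pandas 2.3.3, scipy 1.17.1 and matplotlib 3.10.9 were used.

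Gene spans came from GENCODE M39 on GRCm39, and promoters from the RefSeq table for GRCm38.p6. Named were the 10 genes, the pathway genes whose log2 fold change exceeded 1 in size in a treatment, the 2 of each pathway group with the highest level in untreated cells, and the 5 genes most like Maml3. The members, the lists, the span classes and the motif were chosen with earlier results of these data known. The level of 1 marker gene is not reported here.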

Additional observations from a re-analysis of the deposited data

How the results depend on the processing

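Of 36 log2 fold changes of the listed genes, signs changed for Maml1 in BLU (with DESeq2 size factors, with total counts as the scaling, with 10 counts required in every library, and without replicate 2) and for Hes1 in BLA-A (with no filter), all near 0. Higher levels of Maml2 and Maml3 in BLA and BLU, of Maml3 in BLU-A and of Rbpj in BLA stayed past 1 under each scaling, filter and pseudocount tried. The number of listed genes past 1 in BLA-A, 1 as reported, was 0 with DESeq2 size factors, with 2 CPM added and with no filter, and 0 to 1 on leaving out each replicate. In BLU-A, 2 as reported, it was 1 with 2 CPM added. Notch3, with 11 to 39 counts, accounts for these changes. In BLA it was 3 to 4 on leaving out each replicate.

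The test of nanoparticles against extracts called 0 genes as reported, 697 with no filter beyond 1 count, 30 by the DESeq2 Wald test, 3 with berry as a block and 1 to 4123 on leaving out each library, where the 4123 came without BLU-A. The test of blackberry against blueberry called 0 as reported, 353 with no filter beyond 1 count, 13 by the DESeq2 Wald test, 7 with formulation as a block and 5 to 4879 on leaving out each library, where the 4879 came without BLA. The cause was not tested. With 12 columns as separate samples these tests called 7793 and 5755 genes, and 6062 and 3900 with the replicate block. The columns of a condition differ by less than sampling noise, so these counts measure the difference between libraries. For the formulation the calls then included 4 of the 9 listed genes tested, Maml2, Maml3, Rbpj and Hes1, with and without the block. For the berry they included 3 of 9, Notch1, Notch2 and Maml1, again with and without it. Nothing is read from these calls, since so many genes were called in all. Columns of the same number did not deviate together (mean correlation -0.000893 over 30 pairs, from -0.0247 to 0.0172), so the numbers do not pair them.

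With 1 library per condition, a difference between conditions and one between cultures cannot be told apart. Levels near the floor of 3 counts, 0.111 to 0.117 CPM, limit what is seen of Hey1, Notch3 and most other targets.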
